A study of Mus musculus with 8 samples.

Results

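Tendon and myotendinous marker genes were examined in tibialis anterior (TA) muscle of mice that lack Klotho. The 8 genes are *Tnmd*, *Fmod*, *Thbs4*, *Comp*, *Scx*, *Mkx*, *Chad* and *Kera*. They were chosen by name, with earlier results of these data known. All 8 were found among the 12551 genes of the deposited count table. RNA sequencing covered 4 WT and 4 KL-/- male mice, which were 7 weeks of age and bred from heterozygous Klotho mice of mixed background. The KL-/- mice (labelled Klotho null/null, against wt/wt) are homozygous for a germline null allele of Klotho, so every tissue lacked the gene from conception and no muscle-specific or induced deletion was used. Each library was made from 100 ng of RNA of a whole TA muscle frozen without treatment. The sample records give the molecule as total RNA, whereas the methods describe mRNA libraries.

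Library totals were 20860262 to 26501093 counts in WT and 22061526 to 29273758 counts in KL-/- muscles. Levels are given as CPM, counts relative to the library total scaled with edgeR's TMM factors. Relative to the totals without these factors, 3 counts corresponded to 0.102 to 0.144 CPM. Fold changes are KL-/- over WT, from edgeR's quasi-likelihood test on all 12551 genes with Benjamini-Hochberg adjustment (FDR), and a gene was called at an FDR under 0.05. *Kl* itself is not among the counted genes, so the counts do not show the genotypes, which are taken here from the labels. The paper reports genotyping by PCR and no detectable Klotho protein or *Kl* mRNA in KL-/- muscle. The labels date the batch of KL-/- replicate 3 differently from that of the remaining 7 libraries, so a batch effect and the mouse cannot be told apart. The 11 markers of fast muscle fibres, the fibres of a fast muscle such as the TA, were all counted, and their summed level was 165200 to 187900 CPM in WT and 195400 to 243100 CPM in KL-/- muscles. These samples are whole muscles, in which fewer cells of a type and less RNA per cell cannot be told apart. Nor do the counts show how much tendon was taken with each muscle.

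The myotendinous junction is where the ends of muscle fibres are anchored to tendon collagen and force leaves the muscle. Tendon cells express the transcription factors Scx and Mkx, carry the membrane glycoprotein Tnmd, and embed collagen fibrils in a matrix of small leucine-rich proteoglycans and thrombospondins. Fmod and Kera are small leucine-rich proteoglycans, Chad is a related leucine-rich protein of cartilage and tendon, and Thbs4 and Comp belong to the thrombospondin family.

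*Fmod* and *Thbs4* were the 2 markers whose KL-/- libraries all lay below the WT libraries. The 250 bases before the starts of these 2 genes in RefSeq are shown so that the sequence around the start can be read beside the values. Both were taken from RefSeq on GRCm38.p6 (mm10), run 5′ to 3′ on the strand of the gene, and carry E-boxes (CANNTG, a palindrome searched on both strands and the element that factors of the class of Scx bind) in capitals. The *Fmod* window is chr1:134037004-134037253 on the plus strand, and the *Thbs4* window is chr13:92794819-92795068 on the minus strand.
Fmod: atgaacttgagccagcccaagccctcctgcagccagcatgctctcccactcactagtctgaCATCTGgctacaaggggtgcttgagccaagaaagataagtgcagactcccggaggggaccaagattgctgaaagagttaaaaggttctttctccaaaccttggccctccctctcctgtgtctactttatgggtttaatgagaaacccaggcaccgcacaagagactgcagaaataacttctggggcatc
Thbs4: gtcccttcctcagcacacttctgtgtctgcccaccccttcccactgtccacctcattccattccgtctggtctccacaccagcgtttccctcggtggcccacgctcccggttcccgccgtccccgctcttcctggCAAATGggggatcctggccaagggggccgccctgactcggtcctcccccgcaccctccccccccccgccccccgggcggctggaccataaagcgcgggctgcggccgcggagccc
The E-box of *Fmod* is CATCTG, 189 bases before the start, and that of *Thbs4* is CAAATG, 115 bases before it. The *Chad* window held 1 E-box. The windows listed for *Tnmd* and *Kera* held 0, but 28 of 250 bases of the *Tnmd* window and all 250 of the *Kera* window lie in annotated exons of the gene itself, so the *Kera* window is not upstream sequence. Such a motif is common, since 66.2% of 32851 RefSeq windows of the same length hold 1 or more. The motif GCGNGGGCG, which Egr factors bind, was in none of these 5 windows and in 4.7% of all windows, counted on both strands. RefSeq windows were found for 5 of the 8 markers, and those of *Comp*, *Scx* and *Mkx* were not used here. The start of *Fmod* in RefSeq lies 261 bases before the start of the counted gene.

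Of the 8 markers, 3 fell in KL-/- muscles (*Fmod*, *Thbs4* and *Kera*) and 0 rose. Over all genes tested, 14.0% were called, 6.67% lower and 7.35% higher in KL-/- muscles. Another 1 marker, *Mkx*, had an unadjusted p under 0.05 without passing the FDR. The log2 fold change was negative for 7 of 8 markers, with a median of -0.93, against a median of -0.016 over all 12551 genes. Since the markers were chosen with earlier results of these data known, this describes them and is not independent support. In 2 of the 8 markers all 4 KL-/- libraries lay below all 4 WT libraries, as in 9.47% of all genes, and in 0 markers did all lie above. When library totals replaced the TMM factors, the median of all genes moved to -0.13 and that of the markers to -1.05, and 4 markers were called, *Mkx* being added. With the robust quasi-likelihood test 0 markers were called (FDR 0.0772 for *Fmod*, 0.0613 for *Thbs4* and 0.0726 for *Kera*), and the count was 0 without WT replicates 1, 2 or 3 or KL-/- replicate 3, 1 without WT replicate 4 or KL-/- replicate 4, and 5 without KL-/- replicate 2. The share of called genes that were lower was 47.6% with TMM factors and 81.2% with library totals.

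**Figure D1:**
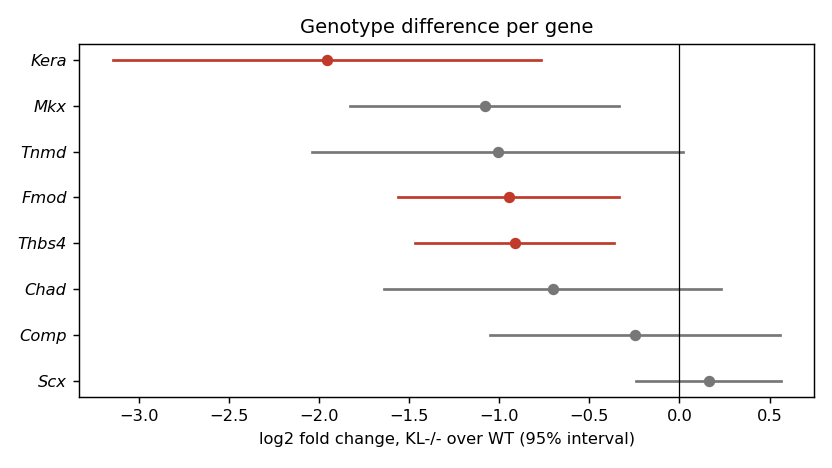
Log2 fold changes of the 8 marker genes (KL-/- over WT, points) with their 95% intervals (lines), from edgeR's quasi-likelihood test. Red marks the 3 genes with an FDR under 0.05. 7 of the 8 points lie left of 0, and the intervals of *Tnmd*, *Chad*, *Comp* and *Scx* include 0.

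*Thbs4* was the most abundant of the markers per length. It encodes thrombospondin 4, a secreted matrix glycoprotein that accumulates at the myotendinous junction and is made by muscle fibres as well as tendon cells. The gene lies at chromosome 13, 92751586 to 92794818, on the minus strand, with 22 exons. Its levels in WT replicates 1 to 4 were 111, 109, 128 and 122 CPM (118 ± 8.88, SD, n = 4). In KL-/- replicates 1 to 4 they were 83.3, 75.7, 59.9 and 30.9 CPM (62.5 ± 23.2, SD, n = 4). All KL-/- libraries were below all WT libraries, and the KL-/- libraries were spread more widely. This gave a log2 fold change of -0.92 with an SE of 0.25 and an FDR of 0.0387 in edgeR's quasi-likelihood test. Leaving out WT replicates 1, 2, 3 or 4 gave an FDR of 0.0663, 0.0759, 0.0945 or 0.0676, and leaving out KL-/- replicate 3 gave 0.0941. The call was thus lost in these fits. Genes called over the whole table also fell in them, from 1759 to 1193, 780, 775, 1368 and 762 in the same order. The log2 fold change stayed between -1.08 and -0.69 in the 8 fits that left out 1 library.

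*Fmod* encodes fibromodulin, which binds collagen and steers the assembly of its fibrils. The counted gene has 3 exons at chromosome 1, 134037515 to 134048277, on the plus strand. WT replicates 1 to 4 had 64.8, 51.6, 71.5 and 47.7 CPM (58.9 ± 11.2, SD, n = 4), and KL-/- replicates 1 to 4 had 43.2, 36.9, 26.6 and 15.5 CPM (30.5 ± 12.2, SD, n = 4). The groups did not overlap, but WT replicate 4 and KL-/- replicate 1 were close. The log2 fold change of -0.95 (SE 0.27) had an FDR of 0.0477 in edgeR's quasi-likelihood test. The call held without KL-/- replicate 1 (FDR 0.0350) or KL-/- replicate 2 (FDR 0.0414). It was lost without WT replicates 1, 2, 3 or 4 (FDR 0.0951, 0.0823, 0.124 and 0.0537) and without KL-/- replicates 3 or 4 (FDR 0.117 and 0.0594), with log2 fold changes of -1.16 to -0.73 over all 8 of these fits.

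*Kera* showed the largest log2 fold change of the 8 markers. Keratocan is best known as a proteoglycan of the cornea and is also found in tendon. The gene has 3 exons at chromosome 10, 97607205 to 97613688, on the plus strand. WT replicates 1 to 4 had 19.8, 17.7, 23.2 and 7.07 CPM (16.9 ± 6.95, SD, n = 4), and KL-/- replicates 1 to 4 had 3.07, 10.3, 2.82 and 1.66 CPM (4.46 ± 3.94, SD, n = 4). The groups overlapped in 1 library each, since KL-/- replicate 2 was above WT replicate 4, while the other 3 KL-/- libraries lay below every WT library. The level was 3.89-fold higher in WT, a log2 fold change of -1.96 (SE 0.53) with an FDR of 0.0390 in edgeR's quasi-likelihood test. Without KL-/- replicate 2 the log2 fold change was -2.73 and the FDR 0.00455, and without WT replicate 4 the FDR was 0.0259. The FDR was 0.0790, 0.0861 and 0.103 without WT replicates 1, 2 and 3, and 0.0909, 0.102 and 0.0973 without KL-/- replicates 1, 3 and 4.

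**Figure D2:**
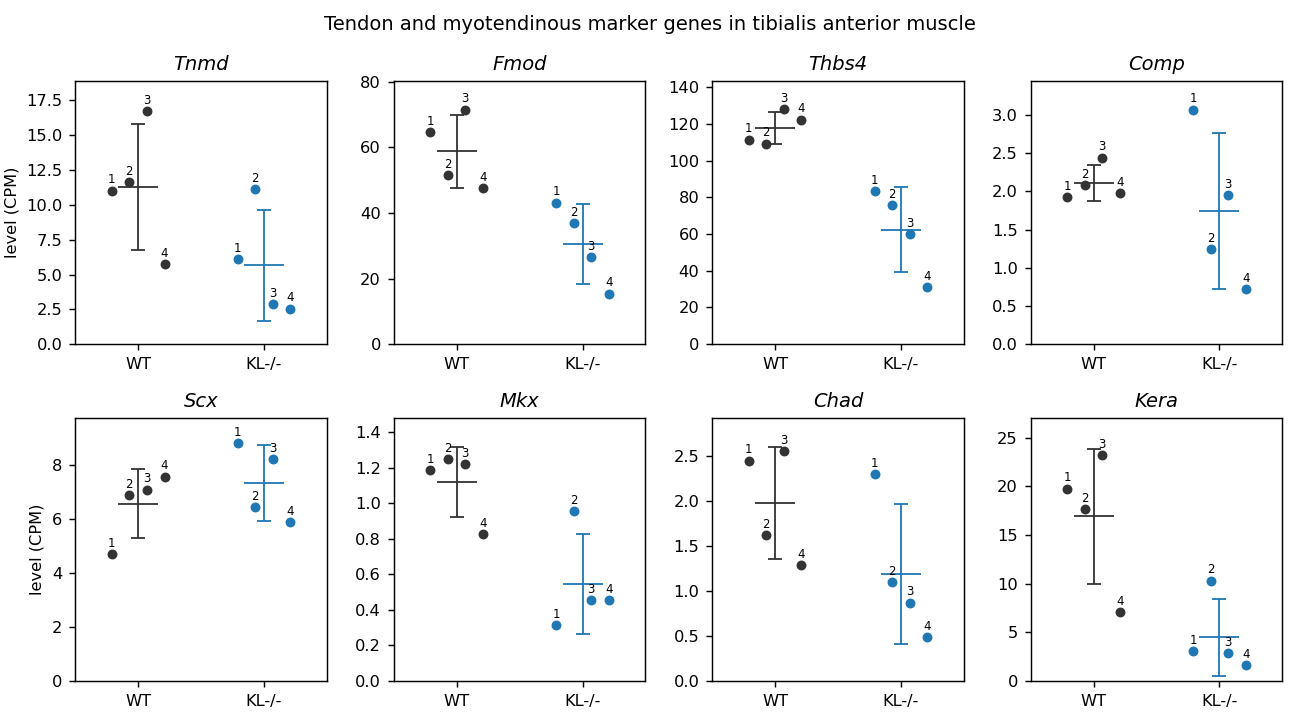
Level of each marker gene (CPM, linear axes that start at 0 and differ between panels) in the 4 WT (black) and 4 KL-/- (blue) libraries. Points are libraries with their replicate number, the horizontal line is the mean and the bar is 1 SD. *Fmod* and *Thbs4* separate the genotypes, whereas *Scx* covers 4.70 to 7.57 CPM in WT and 5.88 to 8.82 CPM in KL-/- muscles.

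The membrane marker *Tnmd* did not pass the test. Tenomodulin is a transmembrane glycoprotein of mature tendon cells, and the gene (7 exons) lies at chromosome X, 133851008 to 133865578, on the plus strand. In WT replicates 1 to 4 it was at 11.0, 11.7, 16.7 and 5.74 CPM, and KL-/- replicates 1 to 4 had 6.10, 11.2, 2.86 and 2.56 CPM. Here too WT replicate 4 was the lowest WT library and KL-/- replicate 2 the highest KL-/- library, and the groups overlapped. The mean of 11.3 ± 4.50 CPM in WT and 5.67 ± 4.00 CPM in KL-/- muscles (SD, n = 4) gave a log2 fold change of -1.01 with a 95% interval of -2.04 to 0.019 and an FDR of 0.163 (edgeR). Without KL-/- replicate 2 the log2 fold change was -1.53 and the FDR 0.0303, and the other 7 fits without 1 library gave an FDR of 0.0986 or more.

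Neither transcription factor gene passed the test. *Scx* encodes scleraxis, the basic helix-loop-helix factor that marks tendon progenitors and is needed for tendons that carry force. It has 2 exons at chromosome 15, 76457438 to 76459468, on the plus strand, inside the span of *Bop1* on the other strand without shared exon bases. WT replicates 1 to 4 had 4.70, 6.89, 7.09 and 7.57 CPM (6.56 ± 1.28, SD, n = 4), and KL-/- replicates 1 to 4 had 8.82, 6.44, 8.21 and 5.88 CPM (7.34 ± 1.40, SD, n = 4). The ranges overlapped widely, and the log2 fold change of 0.16 had a 95% interval of -0.24 to 0.56 and an FDR of 0.563 (edgeR).

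*Mkx* encodes Mohawk, a homeobox factor that maintains tendon cells and their collagen production. It was the least abundant marker, with 23 to 32 counts per WT library and 9 to 20 per KL-/- library. The gene lies at chromosome 18, 6934966 to 7004779, on the minus strand, and 6.28% of its exon bases are shared with a noncoding gene on the same strand. WT replicates 1 to 4 had 1.18, 1.25, 1.22 and 0.825 CPM (1.12 ± 0.198, SD, n = 4), and KL-/- replicates 1 to 4 had 0.314, 0.954, 0.456 and 0.452 CPM (0.544 ± 0.281, SD, n = 4). KL-/- replicate 2 was above WT replicate 4, and the remaining KL-/- libraries were below all WT libraries. The log2 fold change of -1.08 (SE 0.33) had an FDR of 0.0591 in edgeR's quasi-likelihood test. It passed without KL-/- replicate 2 (-1.44, FDR 0.0122) and in 4 of 9 other settings, among them DESeq2 (adjusted p = 0.0471), and it ranged from -1.44 to -0.86 over the 8 fits without 1 library.

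*Comp* and *Chad*, matrix genes shared by cartilage and tendon, were near 2 CPM in WT and did not pass. *Comp*, whose product is a pentameric thrombospondin that binds collagen, has 19 exons at chromosome 8, 70373548 to 70382066, on the plus strand. Levels were 1.92, 2.08, 2.44 and 1.97 CPM in WT replicates 1 to 4, and KL-/- replicates 1 to 4 had 3.07, 1.24, 1.95 and 0.716 CPM. The WT libraries were close together (2.10 ± 0.235, SD, n = 4), and the KL-/- libraries lay on both sides of them (1.74 ± 1.02, SD, n = 4). Its log2 fold change was -0.25, with a 95% interval of -1.05 to 0.56 and an FDR of 0.669 (edgeR), and it was 0.019 without KL-/- replicate 4.

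Chondroadherin, the product of *Chad*, binds collagen and integrins. The gene has 4 exons at chromosome 11, 94565074 to 94569127, on the plus strand, within the span of *Acsf2* on the other strand without shared exon bases. WT replicates 1 to 4 had 2.45, 1.62, 2.55 and 1.29 CPM (1.98 ± 0.621, SD, n = 4), and KL-/- replicates 1 to 4 had 2.30, 1.10, 0.870 and 0.490 CPM (1.19 ± 0.782, SD, n = 4). KL-/- replicate 1 lay among the WT libraries and the other KL-/- libraries lay below them all. The log2 fold change of -0.70 had a 95% interval of -1.64 to 0.23 and an FDR of 0.272 (edgeR), and the FDR was 0.0566 without KL-/- replicate 1.

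Levels per kilobase of exon can be compared between genes. In WT muscle *Thbs4* stood at 36.8 ± 2.77 CPM per kilobase and *Fmod* at 20.6 ± 3.90. They were followed by *Kera* (8.68 ± 3.57), *Tnmd* (8.51 ± 3.39) and *Scx* (5.78 ± 1.12), and then by *Chad* (1.20 ± 0.376), *Comp* (0.867 ± 0.0967) and *Mkx* (0.350 ± 0.0619). Over the 4 WT libraries the neighbours *Kera* and *Tnmd*, *Tnmd* and *Scx*, and *Chad* and *Comp* overlapped in this order, and the other neighbours did not. In KL-/- muscle *Thbs4* was at 19.5 ± 7.24 and *Fmod* at 10.7 ± 4.26 CPM per kilobase, and the 2 ranges overlapped. There *Scx*, at 6.46 ± 1.23 CPM per kilobase, had a higher mean than *Tnmd* (4.28 ± 3.01) and *Kera* (2.29 ± 2.02), the reverse of the WT order, with the 4 *Scx* libraries overlapping those of both *Tnmd* and *Kera*.

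The markers summed to 217, 202, 253 and 195 CPM in WT replicates 1 to 4 and to 150, 144, 104 and 58.2 CPM in KL-/- replicates 1 to 4. No KL-/- sum reached a WT sum, with means of 217 ± 25.8 and 114 ± 42.5 CPM (SD, n = 4). Without *Thbs4* and *Fmod*, which supply most of the sum, the sums were 41.0, 41.2, 53.2 and 24.5 CPM in WT and 23.7, 31.2, 17.2 and 11.8 CPM in KL-/- libraries, and the groups overlapped. KL-/- replicate 4 was the lowest KL-/- library for 7 of the 8 markers and the lowest of all 8 libraries for 6. WT replicate 3 was the highest WT library for 6 markers, and WT replicate 4 was the lowest WT library for 5. The markers therefore differed between mice of 1 genotype as well as between genotypes.

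**Figure D3:**
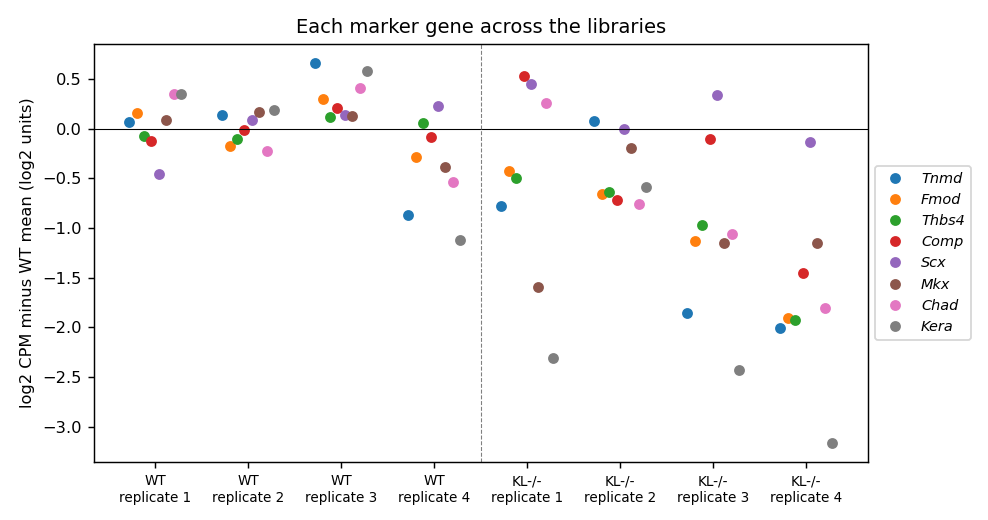
Log2 CPM of each marker gene minus its WT mean (log2 units) in the 4 WT libraries (left of the dashed line) and the 4 KL-/- libraries (right). Each colour is 1 gene. In KL-/- replicate 4 every gene lies below 0, with *Scx* nearest to it and *Kera* farthest, and in KL-/- replicate 1 *Comp*, *Scx* and *Chad* lie above 0.

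Other matrix genes of tendon and fibroblasts formed a list of 33 counted genes (the 34 symbols of the list hold an older and a newer name of *Ctgf*). In it 7 genes fell, 1 rose and 30 had a negative log2 fold change, with a median of -0.97. Among all genes tested, 6.67% were called lower and 7.35% higher. *Tppp3*, a marker of tendon sheath and progenitor cells, fell from 34.7 ± 8.65 to 15.7 ± 4.09 CPM (log2 fold change -1.15, FDR 0.0107), and *Cpxm2*, a carboxypeptidase-like protein, fell from 9.56 ± 1.17 to 4.62 ± 1.61 CPM (FDR 0.0154). These 2 calls held in every fit that left out 1 library. *Dcn*, the collagen-binding proteoglycan decorin, fell from 321 ± 68.0 to 167 ± 55.9 CPM (FDR 0.0305, edgeR), and its relative *Prelp* fell by 0.89 on the log2 scale (FDR 0.0364). *Clec11a*, a secreted growth factor of the C-type lectin family, fell by 1.81 (FDR 0.0226), and *Ctgf*, a matricellular target of TGF-beta, rose by 0.62 (FDR 0.0238). The fibrillar collagens *Col1a1*, *Col1a2* and *Col3a1*, the most abundant genes of the list, had log2 fold changes of -1.27, -1.27 and -1.45 but an FDR of 0.145, 0.117 and 0.126 (edgeR), with WT levels as uneven as 893 ± 610 CPM for *Col3a1*.

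The list's count of called genes depended on single libraries. It was 5, 3, 2 and 13 without WT replicates 1 to 4 and 5, 12, 2 and 2 without KL-/- replicates 1 to 4, against 8 with all libraries. *Dcn* and *Prelp* lost the call without WT replicates 1, 2 or 3 or KL-/- replicates 3 or 4 (*Dcn* FDR 0.0520, 0.0702, 0.0825, 0.0544 and 0.0873, *Prelp* FDR at least 0.0563). *Clec11a* lost it without WT replicates 2 or 3 or KL-/- replicates 1, 3 or 4 (FDR 0.0520 to 0.0636), and *Ctgf* without WT replicate 3 or KL-/- replicates 1, 3 or 4 (FDR 0.0511 to 0.0705). The summed level of the list was 2189, 4738, 4757 and 1405 CPM in WT replicates 1 to 4 and 1679, 2259, 860 and 1084 CPM in KL-/- replicates 1 to 4. WT replicates 1 and 4 thus lay within or below the range of KL-/- replicates 1 and 2, unlike the sums of the 8 markers.

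Regulators of tendon development, 17 counted genes of 22, showed little common movement, with 2 lower, 0 higher and a median log2 fold change of -0.055. The shares over all genes tested were 6.67% lower and 7.35% higher. *Smad3*, which carries TGF-beta signals to the nucleus, fell by 0.43 on the log2 scale (FDR 0.0165, edgeR), a call that held without any single library. *Pdgfrb*, a receptor of mural cells and fibroblasts, had means of 51.7 (WT) and 53.7 (KL-/-) CPM (FDR 0.878, edgeR). *Egr1*, a zinc finger factor that drives tendon collagen and responds to load, had 6.70, 15.1, 16.1 and 6.67 CPM in WT replicates 1 to 4 and 5.58, 8.92, 4.68 and 126 CPM in KL-/- replicates 1 to 4. The log2 fold change of 1.71 (SE 1.01, FDR 0.266, edgeR) rested on KL-/- replicate 4, the library lowest in most tendon markers, without which the KL-/- mean was 6.39 CPM against 11.2 CPM in WT. With library totals 5 regulators were called, all lower, and the median was -0.17.

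A further list held genes tied to the muscle side of the junction. All 26 were counted, and 1 rose and 0 fell, with a median of -0.11, against 7.35% higher and 6.67% lower over all genes tested. RNA of a whole muscle does not show whether these transcripts lie at the junction or elsewhere in the muscle. *Dmd*, which encodes the dystrophin that links the cytoskeleton of the fibre to the matrix, rose from 196 to 255 CPM (log2 fold change 0.39, SE 0.063, FDR 0.00733), a call kept without any single library. *Col22a1*, a collagen found at tissue junctions and named here after its values were seen, did not pass, at means of 50.9 (WT) and 32.4 (KL-/-) CPM and a log2 fold change of -0.65 (SE 0.26). *Xirp2*, *Flnc* and *Des*, the most abundant genes of the list, had log2 fold changes of -0.13, -0.083 and 0.36 and did not pass. Leaving out KL-/- replicate 2 raised the count from 1 to 7 and leaving out WT replicate 4 raised it to 2.

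Markers of other cell types were counted beside these genes, since several sources in a whole muscle share matrix genes. Of 13 interstitial fibroblast markers, 4 fell (*Cd55*, *Gsn*, *Lum* and *Dpp4*) and the median was -0.83, and their summed level was 992 to 1487 CPM in WT and 514 to 971 CPM in KL-/- muscles, without overlap. *Lum* and *Mfap5* are also in the tendon matrix list. Of 12 macrophage markers, 4 fell (*Cx3cr1*, *Itgam*, *Adgre1* and *Ccr2*) and the median was -0.91, with sums of 70.7 to 149 CPM in WT and 49.1 to 86.9 CPM in KL-/- muscles. Of 10 endothelial markers, 1 fell (*Kdr*) with a median of -0.22 and sums of 596 to 852 and 576 to 618 CPM. The share of all genes tested that were called lower was 6.67%. The mean sums of these 3 lists were lower in KL-/- muscles, as were those of the tendon markers, and their part in the tendon marker values was not tested. The number of fibroblast calls dropped to 3, 1 and 1 without WT replicates 1 to 3 and to 1 and 0 without KL-/- replicates 3 and 4. For macrophages it was 2, 0, 1 and 3 without WT replicates 1 to 4, and 0 without KL-/- replicates 3 or 4.

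Schwann cell markers went the other way, with 4 of 10 higher (among them *Sox10*, *Prx* and *Mbp*), a median of 0.76 and sums of 58.8 to 105 CPM in WT and 109 to 135 CPM in KL-/- muscles. Of these calls, 2 remained without KL-/- replicate 3 and 2 without KL-/- replicate 4. Of the 11 fast muscle fibre markers, 1 rose (*Actn3*, log2 fold change 0.67, FDR 0.0103), and the median was 0.25, or 0.13 with library totals. Of all genes tested, 7.35% were called higher and 6.67% lower. Among the 18 cartilage and bone markers 5 were counted, of which 1 rose and 0 fell. The log2 fold change was negative for 4 of these 5, with a median of -0.28. *Col2a1*, the main cartilage collagen, was at 0.251 to 1.83 CPM in WT and 0.264 to 1.25 CPM in KL-/- muscles (FDR 0.776, edgeR), and *Acan* and *Matn1* were not among the counted genes. The cartilage and bone sum was 27.2 to 35.5 CPM in WT and 22.0 to 32.3 CPM in KL-/- muscles, and *Col9a1*, a fibril-associated collagen of cartilage, rose from 2.49 to 4.15 CPM (FDR 0.0155, edgeR) while *Chad* and *Comp* did not pass.

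**Figure D4:**
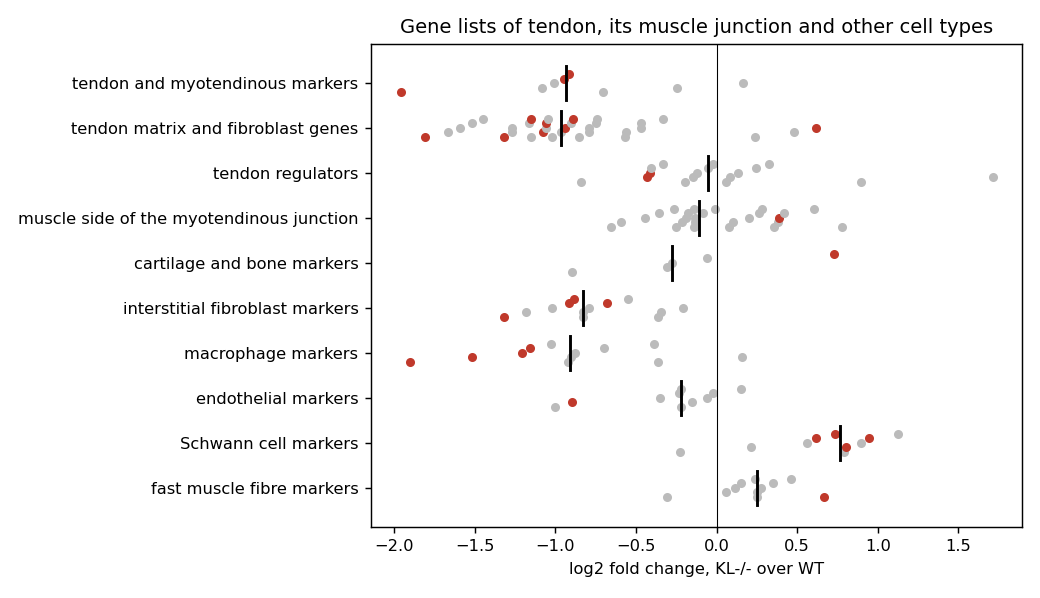
Log2 fold change (KL-/- over WT) of every counted gene in each list, 1 point per gene, with red for an FDR under 0.05 in edgeR's quasi-likelihood test and a black bar at the list's median. The medians are -0.93 for the 8 markers, -0.97 for tendon matrix genes, -0.055 for tendon regulators, and 0.76 for Schwann cell markers, against -0.016 over all genes.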

How the data were processed

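The data are RNA sequencing counts of TA muscle, with 4 WT and 4 KL-/- mice. Per the labels and methods, the authors checked reads with FastQC, mapped them with STAR on mm10, discarded reads of low mapping quality, and obtained gene counts from featureCounts. The deposited values are counts without normalization, limited to expressed genes. The annotation release and the strand setting of the counting are not given in the sources used here. Genotypes come from the sample labels, and each library is 1 mouse.

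Tests used edgeR 4.0.16 under R 4.3.3 (filterByExpr, which removed 0 genes, TMM factors, the quasi-likelihood test with genotype as the only term, Benjamini-Hochberg adjustment). Standard errors come from the test statistic, and log2 CPM uses a prior count of 2. The 8 markers and the other gene lists were chosen with earlier results of these data known. Named genes are the 8 markers, from each other list the genes past an FDR of 0.05 (the 6 with the smallest p where there were more) and the 3 with the highest level, and the 10 genes nearest to the markers' mean pattern. Only some of these are described one by one, and *Egr1*, *Col22a1*, *Col2a1* and the uncounted cartilage genes were added after values were seen. A few list genes are not reported here on their own, though the list counts and sums include them.

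Alternatives were DESeq2 1.42.0, limma-voom (limma 3.58.1), the likelihood ratio test, RLE factors, library totals, no filter, a minimum of 10 counts in every library, the replicate number as a block and each library left out. The legacy and the robust quasi-likelihood test were added after the data had been seen. The script was tested on simulated data. Between 20860262 and 29273758 counts per library put 3 counts at 0.102 to 0.144 CPM without TMM factors, which covers counting error only. Libraries of the same genotype differed by a chi-square per gene of at least 9.91, beyond sampling noise, so each counts as 1 replicate. Replicate numbers were not treated as pairs.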

Additional observations from a re-analysis of the deposited data

Results flagged for a closer look

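Each group of 4 libraries was checked for a highest or lowest library whose gap to the nearest of the others passes Dixon's limit for the group's range. This was done for 122 groups of values, and 4 stood out, where chance flags about 1 in 20. *Mkx* was at 0.825 CPM in WT replicate 4, against 1.18 to 1.25 CPM in the other WT libraries. *Kera* was at 10.3 CPM in KL-/- replicate 2, against 1.66 to 3.07 CPM in the other KL-/- libraries. *Dmd* was at 232 CPM in KL-/- replicate 4, against 260 to 266 CPM in the others. *Myh4*, the fast myosin of type IIb fibres, was at 62800 CPM in KL-/- replicate 2, against 42980 to 45340 CPM. *Egr1*, added after values were seen, was not part of this check. It was at 126 CPM in KL-/- replicate 4, against 4.68 to 8.92 CPM in the other KL-/- libraries.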

How the results depend on the processing

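Over the alternatives, the 8 markers gave 115 fold changes with the same direction and call, 21 whose call was lost, 6 whose call was gained and 1 of the other direction. That 1 was *Comp*, whose log2 fold change ranged from -0.69 to 0.019 over the left-out libraries. The number of markers called was 3. It was 4 with DESeq2, limma-voom, the likelihood ratio test and library totals, and 2 with the replicate block. It was 0 with the robust test, and 0 to 5 over the left-out libraries. The number of genes called was 1759, 671 with the replicate block, and 762 to 2755 over the left-out libraries. Tendon matrix genes called were 8, but 14 with the likelihood ratio test, 4 with the replicate block, 5 with the robust test and 2 to 13 over the left-out libraries. Regulators called were 2, and 5 with library totals. In the list for the muscle side of the junction 1 gene was called, but 7 with DESeq2, 3 with the likelihood ratio test, 6 with library totals and 1 to 7 over the left-out libraries. The cause of these shifts was not tested.

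With library totals *Pdgfrb* was at -0.061 and *Acta1* at -0.060 (log2). Over the left-out libraries *Pdgfrb* ranged from -0.11 to 0.24, *Pecam1* from -0.14 to 0.055, *Flnc* from -0.22 to 0.13, *Mrc1* from -0.043 to 0.42 and *Acta1* from -0.0063 to 0.13. The other named genes kept direction and call in 819 fits, lost the call in 96, gained it in 46 and reversed in 10. The summed marker levels moved by less than 1 SD in all 16 of their alternatives.

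Libraries with the same replicate number did not deviate together: the correlations of their deviations were -0.146, 0.181, -0.368 and 0.017, and 1 of 8 samples correlated best with its own number, so the numbers are not taken as pairs. With the block the FDR was 0.0626 for *Thbs4*. Counts limit *Mkx*, *Comp* and *Chad* most, and *Mkx* was not tested under the minimum of 10 counts.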

Other observations

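The genes whose pattern over the 8 libraries lay nearest to the mean pattern of the 8 markers included both muscle and immune genes. Likeness was the root mean square difference of gene-centred log2 CPM over the 8 libraries, among 11990 genes whose average log2 CPM was 0 or higher, so the genotype difference and the spread between mice both enter it. The nearest was *Fgf6*, a growth factor made by skeletal muscle, at a difference of 0.125 (3.93 ± 0.704 CPM in WT and 2.24 ± 0.649 CPM in KL-/- muscles). It was followed by *Itgbl1*, an integrin-beta-like secreted protein (0.143), and *Cpxm2* (0.179). *Mpeg1* and *Lyz2*, genes of macrophages, were at 0.186 and 0.204, and *Fermt3*, the kindlin of blood cells, was at 0.199. *Sulf2*, which trims sulphate from heparan sulphate, was at 0.192, the adrenergic receptor gene *Adra1a* at 0.203, *Sh3bp2* at 0.210 and the metalloproteinase *Mmp19* at 0.211. For the markers themselves, which enter the mean, the difference was 0.137 for *Fmod* and 0.207 for *Thbs4*, and it was 0.688 for *Scx* and 0.799 for *Kera*.

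Ratios between markers within a library depend little on the scaling of libraries, which enters here only through the prior count of 2 in log2 CPM. That prior weighs most on genes with few counts, such as *Mkx*. The following 4 ratios were picked after values were seen, so their two-sided exact permutation tests over 70 relabelings describe these libraries only. The adjusted exact p was 0.114 for each of the 4, where 0.0286 is the smallest unadjusted p that this design allows. The log2 ratio of *Scx* to *Mkx* was 2.46 ± 0.477 in WT and 3.65 ± 0.780 in KL-/- libraries, and that of *Scx* to *Tnmd* was -0.70 ± 0.763 and 0.60 ± 1.01 (SD, exact permutation p = 0.0571 and 0.0857, n = 4). The log2 ratio of *Thbs4* to *Comp* was 5.76 ± 0.115 in WT and 5.19 ± 0.498 in KL-/- libraries (exact permutation p = 0.114). That of *Fmod* to *Kera* was 1.90 ± 0.562 and 2.99 ± 0.825 (exact permutation p = 0.0571). The genotypes overlapped in each of these ratios.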
